A study of Mus musculus with 3 samples.

Results

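The mouse autosomal genes that hold many meiotic recombination hotspots and are described here number 9: Auts2, Arhgap26, Asic2, Lrmda, Sox5, Dab1, Nckap5, Macrod2 and Camta1. Their members are the DMC1 hotspots (sites) of the deposited table whose peak centre falls inside the RefSeq span of 1 of the 9 genes (mm10), which gave 184 of 24586 sites, or 0.779% of the 23631 autosomal ones. The genes were picked by their number of sites, from the same table, so the counts and densities below describe the choice and were not tested. All 9 spans held sites and no filter on low values was applied.

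The animals were F1 hybrid males of the inbred strains C57BL/6J (B6) and CAST/EiJ (CAST) that carried a humanized allele of Prdm9 (HUM) and the CAST allele, and the libraries are labelled as whole testis of this genotype, with no other genotype or treatment beside it. The DMC1 ChIP-seq library came from a 10-week-old male, and the H3K4me3 ChIP-seq library is labelled as from an adult male. The headers credit the H3K4me3 reads behind the table to an earlier study, so whether they are those of this library was not established. Each assay was run on a single library. Differences therefore have no replicate check, and no p-value is given. The depth behind the signals and shares was unknown.

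In meiosis the zinc-finger protein PRDM9 binds its DNA motif, places H3K4me3 on the nucleosomes beside it, and so marks where the recombination machinery cuts the DNA. The ends of each break are resected to single strands, which the recombinase DMC1 coats while it searches for the homologous chromosome. Hotspots can lie in any kind of gene, since their place follows the motif of the PRDM9 allele and not the expression of the gene in the germ line. In a hybrid, single bases that differ between the strains can leave a motif intact on only 1 homologue. The fraction of a signal on the B6 homologue is called the B6 share below. Near 1 the signal lay on the B6 homologue, near 0 on the CAST homologue.

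RefSeq promoter windows (300 bases around a gene's start) lay in 7 of the 9 spans. None was available in Auts2 or Arhgap26, so their sites could not be placed against a window. Of the 135 sites in the other 7 genes, 1 had its peak centre inside a window, so that its sequence could be shown. It is a site of the CAST class in Asic2, at position 81860622 of chromosome 11, and lies in the window of the lncRNA gene 5530401A14Rik, which runs on the plus strand while Asic2 runs on the minus strand. The 21 capitals mark the DMC1 peak centre with 10 bases on each side. Sequence and strand are those of RefSeq for GRCm38.p6, the build also named mm10, at chr11:81860427-81860726.
5530401A14Rik window in Asic2, plus strand: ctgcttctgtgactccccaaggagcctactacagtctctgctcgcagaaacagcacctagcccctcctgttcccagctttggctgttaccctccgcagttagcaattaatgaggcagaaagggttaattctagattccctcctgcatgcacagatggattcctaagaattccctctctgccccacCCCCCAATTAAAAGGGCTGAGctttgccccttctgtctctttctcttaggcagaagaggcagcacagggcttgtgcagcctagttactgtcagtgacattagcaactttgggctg
The centre is base 196 of the 300, and the window holds 51.7% G and C and 2 CpG dinucleotides, where the medians over 32815 distinct promoter windows are 52.7% and 7. Its H3K4me3 enrichment, 34.9 in the authors' units, was the highest of the 21 sites in Asic2, with a DMC1 signal of 128 and a B6 share of 0.373, and the authors recorded no overlap with a PRDM9-independent H3K4me3 peak. A second site, in Nckap5 (chromosome 1, 126064240, class HUM, DMC1 198), lay outside any window but 147 bases from a window of the lncRNA gene Gm35562. These were the sites within 500 bases of any of the 38 windows, which all lay in the 7 genes with windows.

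The 9 genes are long. They span 9.80 Mb in all, from 775 kb for Arhgap26 to 1998 kb for Macrod2, and held 18.8 sites per Mb. The other 88 autosomal protein-coding genes of at least 775 kb held 7.29 sites per Mb, with 1 to 17 sites each and a median of 7.5. Auts2 had the most sites, 28. Arhgap26, Asic2 and Lrmda had 21 each, Sox5 had 20, Dab1 and Nckap5 had 19 each, Macrod2 had 18 and Camta1 had 17. A count of 17 or more was met by 13 genes, 0.0629% of the 20661 autosomal protein-coding genes; at least 1 site lay in 30.2% of them. Camta1 shared its count with Gpc6, Nav2, Tenm2 and Wwox, which are not among the 9, so membership at 17 was not set by the count alone. Next below, with 16 sites each, were Cntnap2, Dlg2, Gpc5, Grip1, Magi1 and Ptprd.

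**Figure D1:**
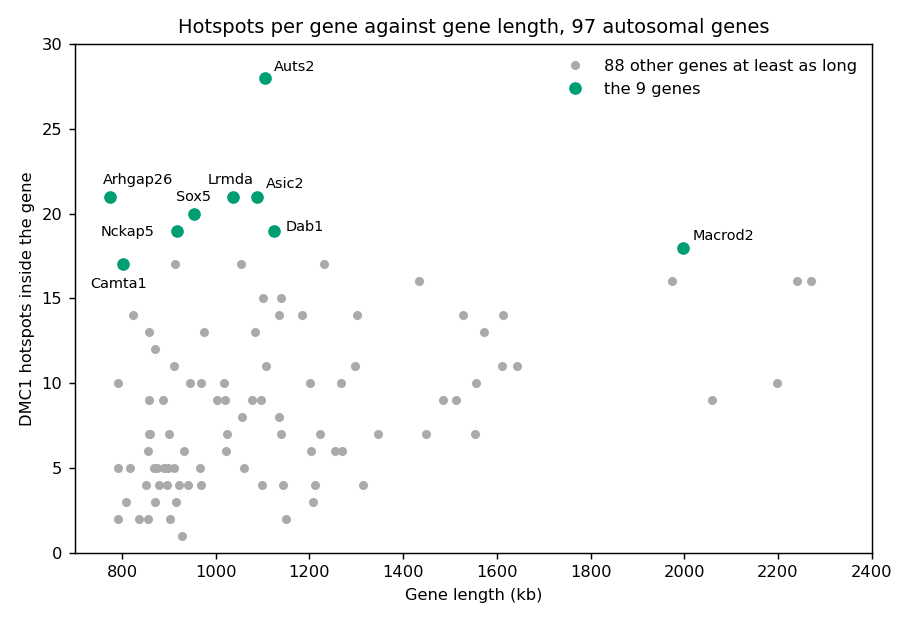
Number of DMC1 hotspots inside each autosomal protein-coding gene (y axis) against the length of the gene in kb (x axis), for the 97 genes at least as long as Arhgap26. Green points are the 9 genes, with 17 to 28 sites, and grey points the other 88, with 1 to 17.

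Since the 9 genes were picked for high counts, how length and count go together cannot be judged within the group. With counts between 17 and 28, sites per Mb tend to fall with length by construction. Arhgap26 was the shortest of the 97 long genes and had the most sites per Mb, 27.1, followed by Auts2 with 25.3. Camta1 (21.2), Sox5 (21.0), Nckap5 (20.7) and Lrmda (20.3) were close to each other, Asic2 had 19.3 and Dab1 16.9. Macrod2, the fifth longest, had 9.01 sites per Mb, and 23 of the 88 other long genes had more.

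The surroundings of the genes differed as well. In windows of the same length on either side, Auts2 had 16 sites below its lower-coordinate end and 2 above its upper end, against 28 inside. Lrmda (22 and 10), Macrod2 (21 and 19) and Camta1 (19 and 15) had a side window with more sites than the gene itself. Arhgap26 (9 and 10), Dab1 (9 and 9) and Nckap5 (9 and 9) had no more than 10 on either side. Over the 9 genes the windows held 134 and 98 sites. Since the genes were chosen for their own counts, lower counts beside them do not by themselves set the genes apart.

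**Figure D2:**
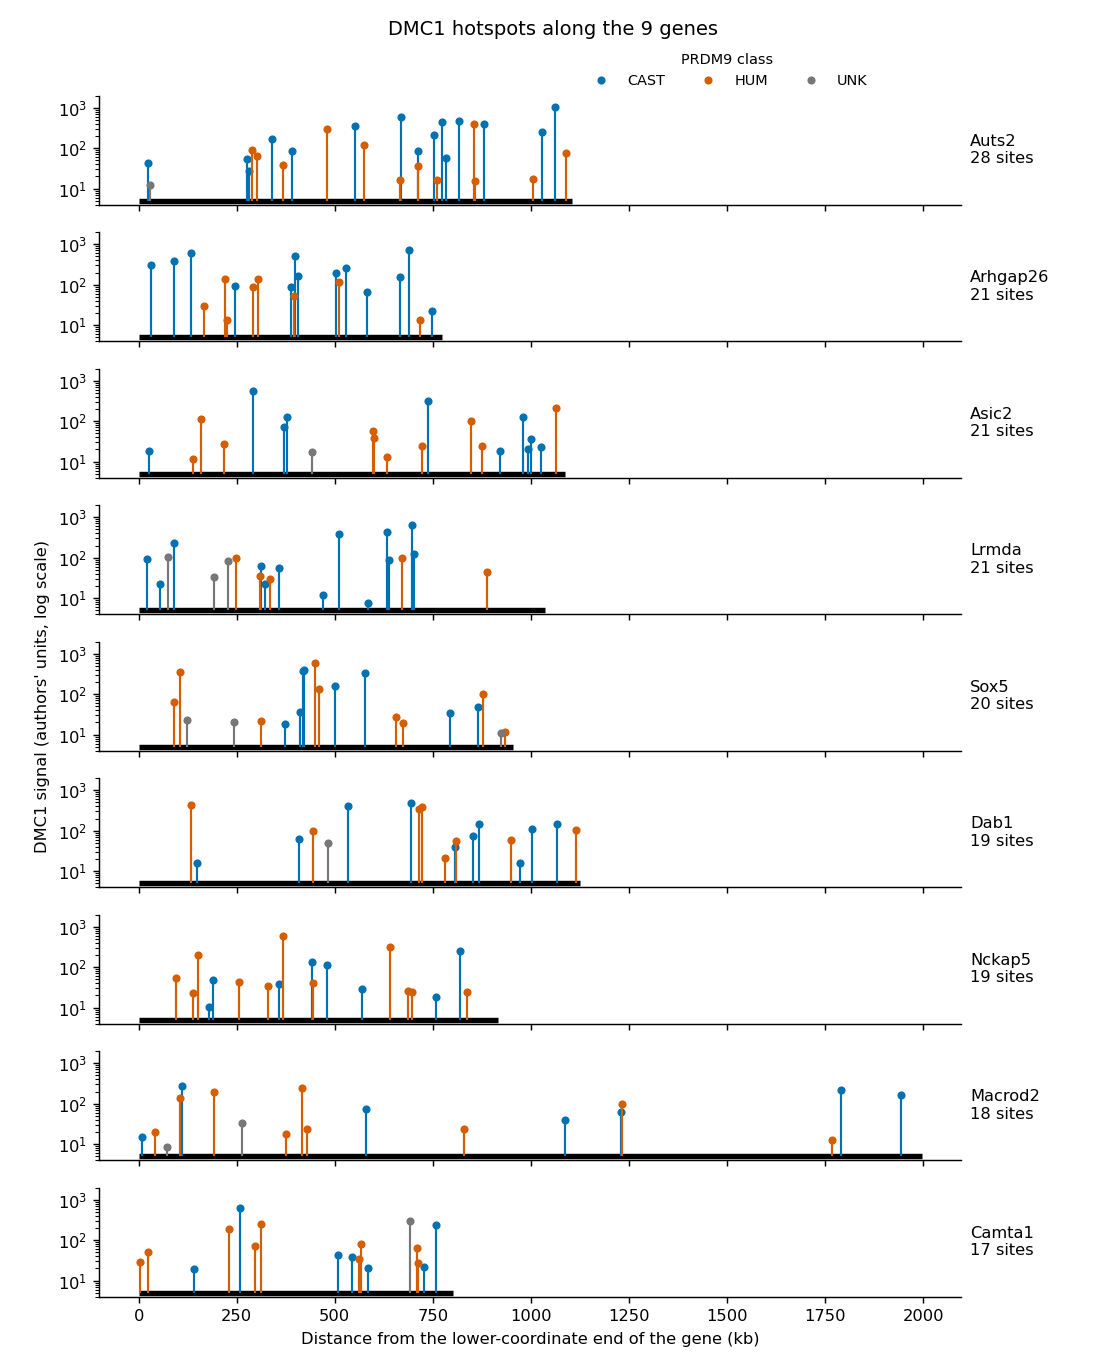
DMC1 signal (y axis, authors' units, log scale) of each of the 184 hotspots by its distance in kb from the lower-coordinate end of its gene (x axis); the black bar is the gene and colour gives the PRDM9 class. Sites of the CAST and HUM classes lie interspersed in every gene, and Macrod2 has an empty stretch of 535 kb.

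Along the genes, neighbouring sites lay at a median of 33.5 kb from each other, against 56.4 kb between neighbours over all autosomes, which follows from the choice of dense genes. The widest empty stretch was 535 kb, in Macrod2 between positions 141628649 and 142163507. Dab1 had one of 261 kb and Auts2 one of 246 kb, while no gap in Nckap5 passed 90.9 kb and none in Arhgap26 passed 96.5 kb. RefSeq promoter windows of the genes themselves, which also give their strand, were found for 7 of the 9 genes. In these, 72 of 135 sites (53.3%) lay in the first 50% of the gene's length counted from the 5′ end, from 6 of 19 in Dab1 to 14 of 21 in Lrmda. None of the 135 lay inside a window of its own gene. The nearest was a UNK site in Sox5, 3.22 kb from a window, and 3 lay within 10 kb. The only window of Sox5 (143947057 to 143947356) lies inside the gene, away from its 5′ end at 144782287. Distances of Sox5 sites to that end are therefore not covered.

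Both PRDM9 alleles placed sites in every one of the 9 genes. The authors assigned 91 of the 184 sites to the CAST allele, or 49.5% (exact Clopper-Pearson 95% interval 42.0% to 56.9%, counting error only), where the CAST class makes up 52.4% of all autosomal sites. The humanized allele had 81, or 44.0% (36.7% to 51.5%), where the background is 39.3%. The class UNK, which the headers do not define, had 12 (6.52%; background 8.11%). The class KO, also undefined there, had 0 of 184, which allows a share of up to 1.63% by a limit of 3 counts and up to 1.98% by the exact interval (background 0.262%). CAST and HUM sites were thus present in about the proportions of the autosomes, within counting error. Sites in the 88 other long genes were 56.2% CAST (52.5% to 59.9%).

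Single genes leaned either way, but no gene's interval left out the 52.4%. The CAST allele had most sites in Arhgap26 and in Lrmda, 13 of 21 each (61.9%, interval 38.4% to 81.9%), in Auts2, 15 of 28, and in Dab1, 10 of 19. The humanized allele had more sites than the CAST allele in Nckap5 (11 against 8), Macrod2 and Camta1 (9 against 7 in each) and Sox5 (9 against 8), and the same number in Asic2 (10 and 10). Summed DMC1 signal spread more widely than site numbers did. CAST sites carried 86.0% of the DMC1 signal of Arhgap26, 80.4% of that of Lrmda and 78.1% of that of Auts2. In Nckap5 they carried 32.2% and HUM sites 67.8%. Single sites weighed on these parts. The strongest site of Nckap5, a HUM site, held 28.8% of its signal. The strongest sites of Lrmda, Auts2 and Arhgap26, all CAST sites, held 23.5%, 19.0% and 17.6%. Over the 9 genes CAST sites carried 64.6% and HUM sites 32.7%, close to the 64.5% and 30.9% of the other autosomal sites.

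By DMC1 the sites of the 9 genes were of ordinary strength. Their median DMC1 signal was 64.2 (95% interval from order statistics 51.8 to 89.0, which describes variation among these sites and not among animals), against 61.4 at the 23447 other autosomal sites and 56.2 at the 722 sites of the other long genes. Of the 184, 48 (26.1%) were in the upper quartile of autosomal sites by DMC1, over 167, and 47 (25.5%) under the lower quartile of 25.8, where 25% of autosomal sites lie in each by construction. Median H3K4me3 enrichment was 13.1 (11.5 to 14.5), against 11.6 at the other autosomal sites and 10.3 (9.31 to 11.0) in the other long genes. The interval of the other long genes lies below that of the 9 genes, a difference that was not tested. Within each class the intervals overlapped. At CAST sites they were 13.07 to 21.8 in the 9 genes and 9.99 to 13.16 in the other long genes. At HUM sites they were 9.57 to 13.5 and 8.60 to 11.1. Sites in all other autosomal protein-coding genes had a median of 12.1, inside the interval of the 9 genes. The median ratio of DMC1 to H3K4me3 was 5.64 (4.85 to 7.16), against 6.05 at the other autosomal sites and 6.34 in the other long genes. Of the H3K4me3 values of the 184 sites, 121 also occur at another site (65.8%, against 63% in the background and 72.6% in the other long genes). These may not all be separate measurements, which was not tested. At the 63 sites whose value occurs once the median was 26.0.

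CAST sites were the stronger class here as on the autosomes as a whole. Median DMC1 was 92.3 (62.2 to 157) at the 91 CAST sites and 54.9 (35.3 to 81.2) at the 81 HUM sites, and median H3K4me3 was 15.2 (13.1 to 21.8) and 11.9 (9.57 to 13.5). The 12 UNK sites had medians of 28.0 and 6.02. Across the 184 sites DMC1 rose with H3K4me3, with a Spearman correlation of 0.787 (0.714 over the other autosomal sites). By gene it ran from 0.589 in Nckap5 to 0.860 in Sox5. These are correlations across sites that share their libraries and, within a gene, their neighbourhood, and are given as a description.

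**Figure D3:**
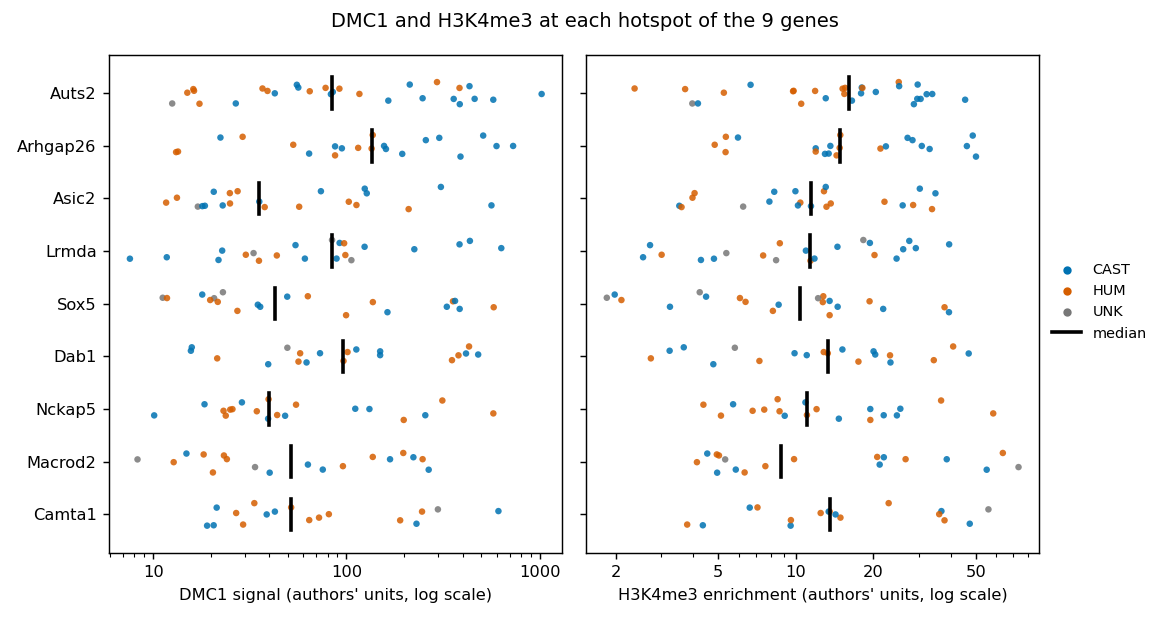
DMC1 signal (left) and H3K4me3 enrichment (right) of each hotspot by gene, both in the authors' units on log axes; points are sites coloured by PRDM9 class and black lines are medians. Median DMC1 runs from 35.4 in Asic2 to 135 in Arhgap26, and the ranges of all 9 genes overlap.

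The first 3 genes act in the nucleus. Auts2 encodes a regulator of transcription in the developing brain that works with Polycomb proteins (chromosome 5, 131437333 to 132543220). Its 28 sites ran from 12.5 to 1026 in DMC1, with a median of 84.2. The site of 1026 (position 132499324, class CAST, H3K4me3 33.9) was the strongest of all 184 and had the highest ratio of DMC1 to H3K4me3, 30.3. Its signal lay on both homologues, with B6 shares of 0.484 for DMC1 and 0.492 for H3K4me3. This site held 19.0% of the DMC1 signal of the gene.

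Sox5 encodes a transcription factor of the SoxD group, known from cartilage and neuron development (chromosome 6, 143828425 to 144782287). Its 20 sites ran from 11.2 to 579, with a median of 42.6, and the strongest was a HUM site (144277483, DMC1 579, B6 share 0.815). It also held the closest pair of the 9 genes, CAST sites 1.24 kb apart at 144248067 and 144249308, with DMC1 of 365 and 386 and B6 shares of 0.972 and 0.910. The first of these had the second highest ratio of DMC1 to H3K4me3, 27.0.

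Camta1 encodes a calmodulin-binding transcription activator (chromosome 4, 151059523 to 151861768). Its 17 sites ran from 19.0 to 613, with a median of 51.8. The strongest, a CAST site at 151317267, lay almost wholly on the B6 homologue (B6 share 0.996 for DMC1 and 0.994 for H3K4me3). A HUM site farther along, at 151371421, had a DMC1 of 247 and a DMC1 B6 share of 0.00547, and so lay on the other homologue.

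The next 3 genes encode proteins of signalling at the membrane and cytoskeleton. Arhgap26 encodes a GTPase-activating protein that acts at membranes (chromosome 18, 38601617 to 39376285). It had the highest median DMC1 of the 9, 135 over 21 sites (range 13.1 to 730.2), and the most DMC1 per Mb, 5364. The 9 genes together had 2631 per Mb, and the 88 other long genes together had 868. By gene, those 88 had a median of 655 and a highest value of 3841. The sum rises with the number of sites, by which the 9 genes were picked. The strongest site of Arhgap26 (39289851, class CAST, DMC1 730.2, H3K4me3 30.9) had DMC1 and H3K4me3 B6 shares of 0.984 and 0.819. Of its sites, 3 also lay inside Fgf1, which encodes a fibroblast growth factor, and 2 inside Gm5820, since these genes overlap it.

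Dab1 encodes the adaptor that passes on the Reelin signal in migrating neurons (chromosome 4, 103619500 to 104744844). Its 19 sites ran from 15.7 to 481, with a median of 96.7. The strongest (104313827, class CAST) had signal on both homologues, with a B6 share of 0.355. No single site dominated, and the strongest held 15.7% of the signal. Nckap5 encodes a protein named for its binding to the adaptor NCK (chromosome 1, 125913636 to 126830796). Its 19 sites ran from 10.1 to 577, with a median of 39.6. The strongest was a HUM site (126282227, DMC1 577, H3K4me3 58.4, B6 share 0.429) that held 28.8% of the signal. Nckap5 also held the lowest ratio of all 184, a CAST site at 126092358 with DMC1 10.1 and H3K4me3 24.7.

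The last 3 genes encode a channel, an enzyme and a protein of pigment cells. Asic2 encodes an acid-sensing ion channel of neurons (chromosome 11, 80880163 to 81968396). It had the lowest median DMC1 of the 9, 35.4 over 21 sites (range 11.7 to 564). Its strongest site (81171680, class CAST) lay on the B6 homologue, with a B6 share of 0.994. Its weakest, a HUM site at 81019442 with DMC1 11.7 and H3K4me3 10.4, had the third lowest ratio of the 184, 1.12. Lrmda encodes a leucine-rich protein of melanocyte differentiation (chromosome 14, 22019504 to 23056093). Its 21 sites ran from 7.58, the lowest DMC1 of all 184, to 634, with a median of 84.3, and the strongest (22717495, class CAST) had a B6 share of 0.989.

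Macrod2 encodes a hydrolase that removes ADP-ribose from proteins (chromosome 2, 140395303 to 142392966). Its 18 sites ran from 8.30 to 267, with a median of 51.7, so its strongest site (140506416, class CAST, B6 share 0.528) was weaker than the strongest site of each of the other 8 genes. Its DMC1 per length, 836 per Mb, was the lowest of the 9 and ranked 46 among the 97 long genes. The highest H3K4me3 of the 184 sites, 73.3, also lay in Macrod2, at 140659929. That UNK site lies within the span of Flrt3 (140658198 to 140671476), an adhesion protein gene nested in Macrod2, at 11498 bases from its RefSeq promoter window. It overlapped a PRDM9-independent H3K4me3 peak and had a DMC1 of 33.7, which gave the second lowest ratio, 0.460.

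Few sites of the 9 genes lay on H3K4me3 that does not depend on PRDM9. The authors recorded such an overlap at 4 of 184 sites, or 2.17% (interval 0.595% to 5.47%), where the background over autosomal sites is 8.68%. In the 88 other long genes it was 29 of 722, or 4.02% (2.71% to 5.72%), an interval that overlaps that of the 9 genes. Besides the site in Flrt3 these were a CAST site in Nckap5 (126483714, DMC1 28.8), a HUM site in Sox5 (143933497, DMC1 356, B6 share 0.0224) and a CAST site in Asic2 (81251308, DMC1 73.9, B6 share 0.990).

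The homologue that carried the DMC1 signal differed from site to site. Of the 175 sites with a DMC1 share, 31 had a B6 share over 0.9, or 17.7% (interval 12.4% to 24.2%; background 19.3%), 25 had one under 0.1, or 14.3% (9.46% to 20.4%; background 14.3%), and 72 lay between 0.3 and 0.7 (41.1%; background 45.6%). More one-sided CAST sites lay on the B6 homologue and more one-sided HUM sites on the CAST homologue. Of 89 CAST sites 22 were over 0.9, or 24.7% (16.2% to 35.0%; background 21.3%), and 6 under 0.1, or 6.74% (2.51% to 14.1%; background 10.2%). Of 79 HUM sites 9 were over 0.9, or 11.4% (5.34% to 20.5%; background 17.2%), and 17 under 0.1, or 21.5% (13.1% to 32.2%; background 18.8%). Each of these intervals covers its background. The CAST sites over 0.9 had a median DMC1 of 234 (range 21.8 to 730.2). The 6 CAST sites under 0.1 had one of 64.6, and the 37 between 0.3 and 0.7 one of 113. The HUM sites under 0.1 had one of 87.5 (range 18.3 to 385). The 9 HUM sites over 0.9 had one of 57.7, and the 33 between 0.3 and 0.7 one of 57.0. No background was set beside these medians.

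**Figure D4:**
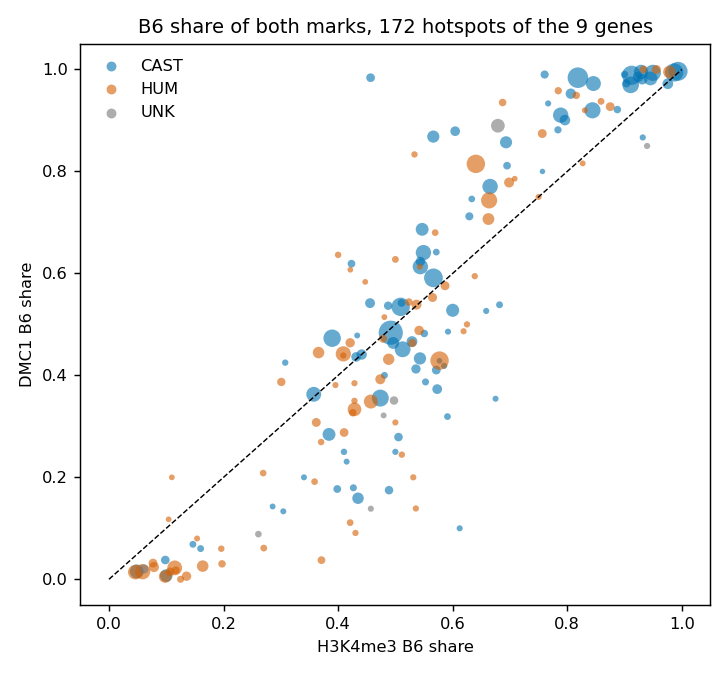
DMC1 B6 share (y axis) against H3K4me3 B6 share (x axis) at the 172 hotspots of the 9 genes that have both; colour gives the PRDM9 class, point area grows with DMC1 signal, and the dashed line marks equal shares. Of 26 sites with an H3K4me3 share under 0.3, 24 lie below the line, and of 37 over 0.7, 32 lie above it.

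DMC1 was more one-sided than H3K4me3 at the same sites, here as on the autosomes as a whole. Of 26 sites with an H3K4me3 share under 0.3, 24 had a lower DMC1 share (92.3%; background 85.1%), and of 37 over 0.7, 32 had a higher one (86.5%; background 85.6%). Over all 172 sites with both shares the DMC1 share was the lower one at 92 (53.5%; background 56.3%). By H3K4me3, 17 of 177 sites were over 0.9 (9.60%; background 8.95%) and 9 were under 0.1 (5.08%; background 4.86%), and 112 lay between 0.3 and 0.7 (63.3%; background 61.5%). Of the 56 sites one-sided in DMC1, 22 were one-sided in H3K4me3 in the same direction (39.3%; background 39%), and 4 had an H3K4me3 share between 0.3 and 0.7 (7.14%, interval 1.98% to 17.3%; background 11.2%). These counts are near the background. The shares of the 2 marks went together, with a Spearman correlation of 0.871 across 172 sites. Sites with H3K4me3 on a single homologue (26) had a median ratio of DMC1 to H3K4me3 of 11.3 (7.90 to 15.8), and those with H3K4me3 on both (112) one of 4.65 (4.16 to 5.02), where the other autosomal sites had 11.5 and 5.28.

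A HUM site in Arhgap26 (39111601, DMC1 115) had the third lowest DMC1 B6 share, 0.00613, with 0.135 for H3K4me3. The widest departures between the marks were in opposite directions. A CAST site near the start of Lrmda (22040793, DMC1 92.3) had a DMC1 B6 share of 0.984 and an H3K4me3 B6 share of 0.457. A CAST site in Asic2 (81872269, DMC1 20.6) had 0.1 and 0.612. Both were picked after their values were seen, and the reads behind the shares are unknown. At the ends of the scale, DMC1 shares of exactly 1 were given for HUM sites in Dab1 (104735777) and Camta1 (151770396), and of 0 for a HUM site in Nckap5 (126168523).

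Summed over a gene, DMC1 fell unequally on the homologues. The B6 homologue carried 76.2% of the DMC1 signal of Lrmda and 70.6% of that of Sox5, but 40.1% of that of Nckap5, while Auts2 (50.8%) and Dab1 (50.6%) were near equal. Over the 9 genes it was 58.7%, and over the other autosomal sites 57.2%. In 2 genes the strongest site set much of this value. Without it the B6 part fell from 56.1% to 38.6% in Asic2 and from 64.7% to 50.2% in Camta1, while in Lrmda (69.0%), Sox5 (67.7%) and Nckap5 (38.9%) it stayed on the same side of 50%.

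**Figure D5:**
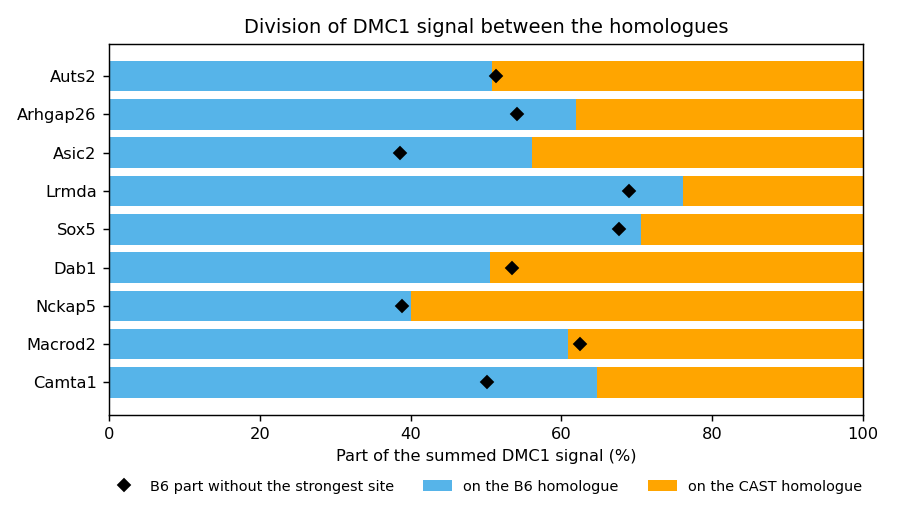
Part of the summed DMC1 signal of each gene on the B6 (blue) and CAST (orange) homologue, in percent, over sites with a DMC1 share. Diamonds give the B6 part without the strongest site, which moved Asic2 from 56.1% to 38.6%.

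Some sites lay so close that their signals can be compared within one neighbourhood, but whether such sites share reads was not tested. Of 175 pairs of neighbours 14 were closer than 5 kb (8%, against 5.03% of autosomal pairs, a difference the choice of dense genes favours). Of the 14, 7 joined a CAST and a HUM site, 3 joined CAST sites and 4 joined HUM sites. In Lrmda, CAST sites 3.39 kb apart lay on opposite homologues: that at 22653657 had a DMC1 of 436 and a B6 share of 0.993, and that at 22657046 had 89.0 and 0.0378. In Macrod2 a CAST and a HUM site 2.25 kb apart both leaned to the CAST homologue, with shares of 0.177 and 0.0317. In Auts2 a HUM site of DMC1 16.1 lay 4.28 kb from a CAST site of 576.

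The closest pairs of the other genes were of both kinds. A HUM and a CAST site lay 1.30 kb apart in Auts2 (B6 shares 0.111 and 0.175), 2.39 kb apart in Lrmda (0.680 and 0.811) and 3.19 kb apart in Arhgap26 (0.949 and 0.473). A CAST and a HUM site lay 3.002 kb apart in Dab1 (0.538 and 0.327) and 3.31 kb apart in Nckap5 (0.542 and 0.938). HUM sites lay 2.50 kb apart in Asic2 (0.544 and 0.0612) and 2.66 kb apart in Camta1 (1 and 0.833). Within a pair, then, the shares were close in Auts2 and far apart in Asic2.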

How the data were processed

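DMC1 hotspots were taken, 1 per line, from the table that the authors deposited, in mm10 coordinates. The DMC1 signal (the authors' "heat") and the H3K4me3 signal are intensities from the authors' peak callers, per the file headers, and no source used here gives their scaling. The B6 share is a fraction, the signal on B6 over the signal on both homologues, per the file headers. The headers credit the H3K4me3 reads to an earlier study, and whether these are the reads of the labelled library was not established. The submitters' processing notes name BWA as the aligner, with version 0.7.15 given for all libraries but DMC1. MNase-seq data were not used here.

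Sites were placed in genes with the RefSeq spans of GRCm38.p6 (20661 autosomal protein-coding genes), and all 9 symbols matched. The genes, lists and thresholds were chosen with earlier results of these data known. The 9 genes were named in full. Also named were the genes with the next highest counts, the 3 genes most alike, the strongest site and closest pair in each gene, and the sites with the 3 highest and lowest ratios and shares. The sites on PRDM9-independent peaks or near promoter windows, the widest gaps and the further pairs were named after their values were seen. Shares have exact Clopper-Pearson and medians exact order-statistic 95% intervals, and both cover neither animals nor libraries. No pseudocount was used. Background percentages are over all autosomal sites. Counting and intervals were tested on simulated data. Python 3.11.15, pandas 2.3.3, numpy 2.4.6 and scipy 1.17.1 were used.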

Additional observations from a re-analysis of the deposited data

How the results depend on the processing

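Of 118 alternative values for the 184 sites, 110 stayed inside the interval of the reported value, or within 1.5 times the reported count of sites. Among them were all values with any single gene left out. Many of these could hardly move. Flanks of 5 kb added no site, so their values repeat the reported ones. Leaving out 1 gene kept at least 156 of the 184 sites, so the count could not pass its limit. Without 1 gene the CAST share ran from 47.9% to 50.6% and median DMC1 from 57.7 to 73.1. The other 8 moved. With only sites of DMC1 at or above the lower autosomal quartile, median DMC1 was 103, which follows from the limit itself. Median H3K4me3 was then 16.5 and the median ratio 7.53; the cause of these shifts was not tested. Without H3K4me3 values that also occur at another site, median H3K4me3 was 26.0; the cause was not tested. Wider limits raised the share of one-sided sites by construction, to 25.1% over 0.8 and 21.1% under 0.2, and taken from H3K4me3 the shares were 9.60% over 0.9 and 5.08% under 0.1. No paired analysis was possible because each assay had 1 library. The unknown depth limits every share near 0 or 1.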

Other observations

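Among the 82 other autosomal genes with at least 10 sites, those most like the 9 genes pooled were Creb5, Slc4a4 and Sox6, by the summed distance in sites per Mb, CAST fraction, median DMC1 and median H3K4me3 (all but the fraction on the log2 scale, on which these medians were taken), each in units of its SD. Their distances were 0.832, 0.860 and 0.879. Each of the 9 genes lay farther from the pooled values, from 1.33 for Dab1 to 3.84 for Macrod2. Neither the count of sites nor gene length entered the distance by itself. The 3 genes are 413 to 570 kb long, shorter than any of the 9. Each had 10 sites, the lowest number compared, of which 50% were CAST. Creb5 had 24.2 sites per Mb and a median DMC1 of 73.1, Slc4a4 had 22.4 and 65.3, and Sox6 had 17.5 and 68.6.

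At the other end, some genes of the same length held almost no sites. Cdh18, which encodes a cadherin, had 1 site in 929 kb, and Cdh12, another cadherin gene, had 2 in 1150 kb. Auts2, of 1106 kb, had 28. These genes were picked after their counts were seen.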
